A study of Mus musculus with 16 samples.

Results

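The comparison of an LCN2 vector with a GFP vector in subcutaneous fat rests on 8 of the series' 16 samples, chosen by their labels as the subcutaneous ones, 4 with LCN2 and 4 with GFP. All 8 came from female mice on the C57BL/6J background that are null for Lcn2 (B6.129P2- Lcn2tm1Aade/AkiJ), so the control group carries the null allele too. At 8 weeks of age the mice received adeno-associated virus 8 (AAV8), a vector that carries a gene into cells of the host, into a vein. The vector carried either LCN2, for lipocalin-2, or GFP, for a green fluorescent protein, behind an adiponectin promoter, which is active in fat cells. A target sequence of microRNA122, a liver microRNA, was added so that transcripts made in the liver are degraded. Sampling was at 16 weeks of age, and the diet was HF/HS, sold by Research Diets as D12266B. Whole tissue was profiled by RNA sequencing, and expression is given as rlog, a regularised log2 value that shrinks weakly expressed genes towards their average. Differences are LCN2 minus GFP on that scale, each printed ± its standard error, and they understate the change of weakly expressed genes. The depth of the libraries is unknown, because the deposited values hold no counts.

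Lipocalin-2 is a small secreted protein that binds siderophores, the iron carriers of bacteria, and so withholds iron from them. Fat cells, macrophages and neutrophils can make it. Subcutaneous white fat stores triglyceride in large fat cells that secrete leptin and adiponectin. It also holds progenitors, vessels, macrophages and, in mice, scattered thermogenic (beige) fat cells that burn fuel through the uncoupling protein UCP1. Lymph nodes can lie within this depot, and in females mammary ducts run through it.

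Lymph node genes set 2 GFP libraries apart. For each list of marker genes, the level in a sample was taken as the median, over the list's measured members, of rlog minus the gene's mean over the 8 samples. The level of the B cell list was 3.03, 1.99, -1.28 and -1.33 in GFP replicates 1 to 4 and -1.44, -1.44, -0.97 and 1.32 in LCN2 replicates 1 to 4. GFP replicates 1 and 2 were high, LCN2 replicate 4 was between them and the other 5, and those 5 were low. The list of T and NK cells stood at 2.39, 2.15, -0.82 and -0.67 in GFP replicates 1 to 4 and -0.50, -1.01, -0.76 and -0.55 in LCN2 replicates 1 to 4, with GFP replicates 1 and 2 above all others. The list of lymph node stroma and vessels stood at 1.33, 0.56, -0.34 and -0.39 in GFP replicates 1 to 4 and -0.26, -0.45, -0.49 and 0.04 in LCN2 replicates 1 to 4, again highest in GFP replicates 1 and 2. Ccl21a, a chemokine of lymph node stroma, had an rlog of 11.55, 10.72, 7.86 and 8.77 in GFP replicates 1 to 4 and 9.07, 7.18, 7.50 and 7.15 in LCN2 replicates 1 to 4. GFP replicates 1 and 2 were again the highest. Cd3g, a subunit of the T cell receptor complex, had an rlog of 9.08, 8.62, 5.65 and 5.81 in GFP replicates 1 to 4 and 5.73, 5.14, 5.40 and 5.69 in LCN2 replicates 1 to 4. Igkc, the constant region of the antibody kappa chain, was at 11.79, 10.56, 7.84 and 8.11 in GFP replicates 1 to 4 and 7.53, 7.30, 7.80 and 9.78 in LCN2 replicates 1 to 4, so that LCN2 replicate 4 was also above the other LCN2 samples. Ccl21a and Igkc belong to families of similar genes among which the counting may have split reads. The differences below are therefore given with all 8 samples and without GFP replicates 1 and 2, which leaves 4 LCN2 and 2 GFP samples.

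Other marker lists were checked in the same way. The hepatocyte list stood at 0.51, 1.94, -0.59 and -0.69 in GFP replicates 1 to 4 and -0.39, 0.05, -0.19 and -0.58 in LCN2 replicates 1 to 4, highest in GFP replicate 2. Fgb, the fibrinogen beta chain made by liver, had an rlog of 6.91, 8.76, 7.29 and 7.12 in GFP replicates 1 to 4 and 6.11, 6.49, 6.14 and 6.82 in LCN2 replicates 1 to 4, and every LCN2 sample was below every GFP sample, with a difference of -1.13 ± 0.39, or -0.82 ± 0.21 without GFP replicates 1 and 2. Most of the list differed from it once the pair was left out: the median was -0.68 with all samples, but 0.47 without the pair, with 14 of 16 members above 0 and 4 higher and 1 lower at an unadjusted p under 0.05. The list of mammary epithelium ranged from -0.56 to 0.39, and its 21 measured members all had a mean rlog of at least 8.24. Among its members not tested, the milk protein genes Csn2 and Wap had mean values of -0.11 and -1.72, under the mean of 3 required for testing. The mesothelial genes Wt1 and Upk3b, at means of -1.07 and 1.77, were under it as well. Adipoq, the adiponectin gene of fat cells, shown as a marker of the tissue, was at 15.77, 16.03, 16.27 and 15.92 in GFP replicates 1 to 4 and 16.00, 16.36, 16.26 and 16.23 in LCN2 replicates 1 to 4, and the groups overlapped. In bulk tissue, fewer cells of a type and less RNA per cell cannot be told apart.

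**Figure D1:**
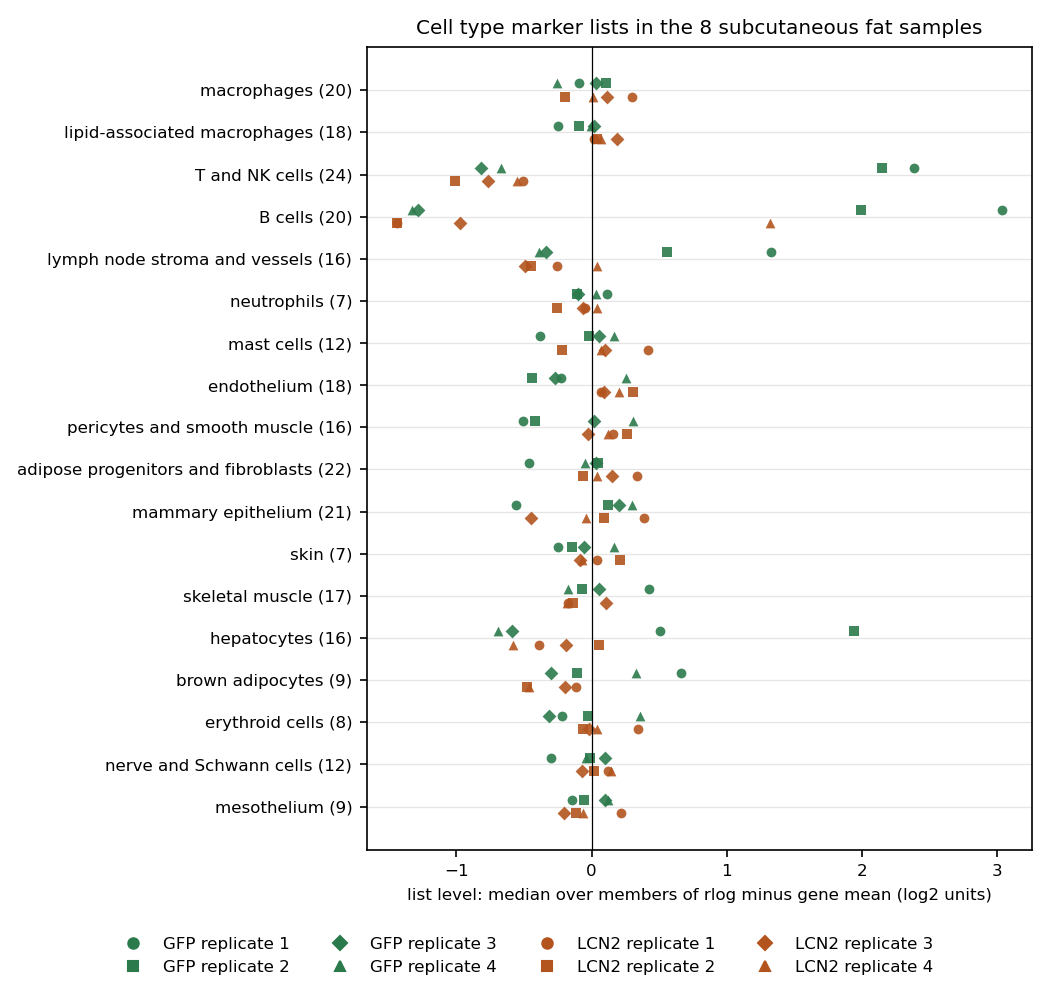
Levels of 18 cell type marker lists in each subcutaneous fat sample. The x axis is the median over the list's members of rlog minus the gene's mean over the 8 samples, in log2 units, with the number of measured members in brackets. Green marks are GFP samples, orange marks LCN2 samples, and the mark's shape is the replicate number. GFP replicates 1 and 2 stand to the right in the lists of T and NK cells, B cells and lymph node stroma, with LCN2 replicate 4 at 1.32 in the B cell list.

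Every LCN2 sample had more Lcn2 than every GFP sample. Its rlog (ENSMUSG00000026822, chromosome 2, 32384633 to 32388252, minus strand, GRCm38) was 7.76, 8.32, 8.23 and 8.37 in GFP replicates 1 to 4 and 8.74, 8.49, 9.45 and 9.82 in LCN2 replicates 1 to 4. LCN2 replicates 3 and 4 were the highest, and LCN2 replicate 2 lay closest to the GFP samples. The mean difference was 0.95 ± 0.29, and its 2-sided exact permutation p was 0.0286, the smallest that 4 against 4 samples allow. The difference without GFP replicates 1 and 2 was 0.82 ± 0.36, with an exact permutation p of 0.133. Without LCN2 replicate 4 as well it was 0.59, with an exact permutation p of 0.2. Reads from the host gene and from the vector cannot be told apart in values per gene, and the part of the gene that the null allele lacks is not in the labels.

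Over the whole table, limma called 0 of 20302 genes at an adjusted p under 0.05, or 0% of those tested, with all 8 samples and also without GFP replicates 1 and 2. The smallest adjusted p by limma was 0.308 with all samples and 0.905 without these libraries. Without adjustment, 2851 genes had a p under 0.05, 14.0% of those tested, of which 1585 (7.81%) were higher and 1266 (6.24%) were lower with LCN2. Without GFP replicates 1 and 2 this held for 919 genes (4.53%), 536 (2.64%) higher and 383 (1.89%) lower. In both fits together, 365 genes (1.80%) were higher and 189 (0.931%) lower. All 4 LCN2 samples lay above all GFP samples for 774 genes (3.81%) and below them for 663 genes (3.27%), 7.08% together. The median difference over all tested genes was 0.00 with all samples and 0.01 without the pair of libraries. Nothing in the labels says which mouse each sample came from, and a p-value here reflects only how much these samples vary, which may be technical in part. Since no gene passed the test, every gene below is given as a value, not as a change. Counts in gene lists are of unadjusted p under 0.05 and are to be read against these shares. The lists were chosen with earlier results of these data known, and their members are not independent of each other. A count above its share is therefore no test of a list.

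**Figure D2:**
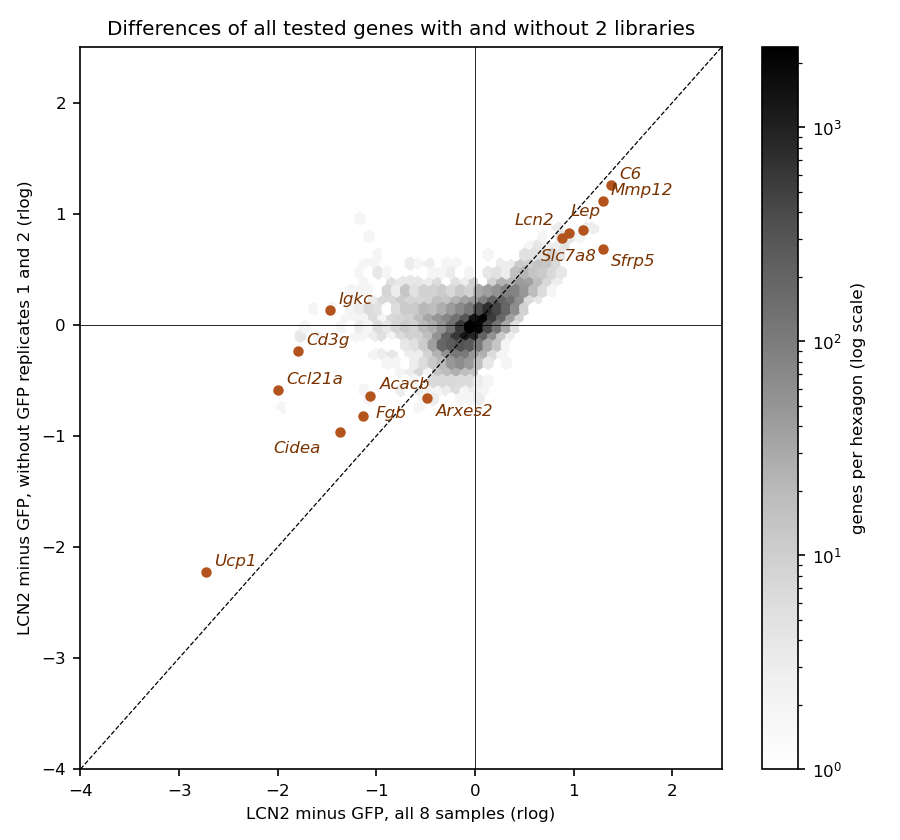
Difference between LCN2 and GFP for all 20302 tested genes with all 8 samples (x axis, rlog) and without GFP replicates 1 and 2 (y axis, rlog). Grey shades give the number of genes per hexagon on a log scale, the dashed line marks equal values, and orange points are genes named in the text. Cd3g, Ccl21a and Igkc lie far left and closer to 0 on the y axis, at -0.24, -0.59 and 0.13, while Lep, C6 and Mmp12 lie near the dashed line.

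The leading genes on the higher side were chosen for groups that did not overlap and an unadjusted limma p under 0.05 in both fits. Both traits therefore follow from the choice. Slc7a8, an exchanger of neutral amino acids in the cell membrane (chromosome 14, 54722209 to 54781946, minus strand), had an rlog of 9.12, 8.87, 9.10 and 9.27 in GFP replicates 1 to 4 and 9.84, 10.28, 10.04 and 9.71 in LCN2 replicates 1 to 4. The lowest LCN2 sample was above the highest GFP sample, with a difference of 0.88 ± 0.13, or 0.78 ± 0.16 without the pair of libraries. Serping1, the C1 inhibitor that restrains complement and contact activation (chromosome 2, 84765387 to 84775444, minus strand), was at 12.31, 12.44, 12.58 and 12.48 in GFP replicates 1 to 4 and 13.05, 12.80, 12.92 and 12.97 in LCN2 replicates 1 to 4. Its difference was 0.48 ± 0.08, or 0.40 ± 0.09 without the pair. Endou, which encodes an RNA-cutting enzyme, was at 7.65, 7.55, 7.63 and 7.54 in GFP replicates 1 to 4 and 8.16, 8.50, 8.12 and 8.30 in LCN2 replicates 1 to 4, with the GFP samples close together. Its difference was 0.67 ± 0.09, or 0.68 ± 0.12 without the pair. Ednrb, a receptor for endothelins, was at 9.58, 9.84, 9.84 and 9.93 in GFP replicates 1 to 4 and 10.38, 10.22, 10.31 and 10.19 in LCN2 replicates 1 to 4, a difference of 0.48 ± 0.08, or 0.39 ± 0.07 without the pair.

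The other leading genes given on that side had differences between 0.32 and 0.93. Cdkl4, a kinase related to the cyclin-dependent kinases, had 0.93 ± 0.14, or 0.79 ± 0.16 without the pair. Atp6v0d2, a subunit of the proton pump that is abundant in osteoclasts and macrophages, had 0.62 ± 0.09, or 0.60 ± 0.12 without. Setd7, a lysine methyltransferase, had 0.43 ± 0.07 (0.39 ± 0.09 without the pair). Naaa, a lysosomal hydrolase of fatty acid ethanolamides, had the smallest of these differences at 0.32 ± 0.05 (0.30 ± 0.07 without the pair). Each had an adjusted p of 0.308 by limma.

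Acacb had the largest difference among the 10 leading genes on the lower side. This gene of acetyl-CoA carboxylase 2, whose product malonyl-CoA restrains the entry of fatty acids into mitochondria (chromosome 5, 114146535 to 114250761, plus strand), had an rlog of 13.29, 13.17, 12.32 and 12.42 in GFP replicates 1 to 4 and 12.01, 11.60, 11.68 and 11.63 in LCN2 replicates 1 to 4. GFP replicates 1 and 2 were the highest samples, and all LCN2 samples were below all GFP samples. The difference was -1.07 ± 0.23, or -0.64 ± 0.12 without the pair of libraries, so it was smaller without them. Nat8l, which makes N-acetylaspartate and is abundant in brown fat, was at 12.66, 12.83, 12.81 and 12.59 in GFP replicates 1 to 4 and 12.19, 12.15, 12.37 and 12.36 in LCN2 replicates 1 to 4. Here the GFP samples were close together, and the difference was -0.45 ± 0.08, or -0.43 ± 0.10 without the pair. St3gal6, a sialyltransferase, was at 10.27, 10.54, 10.06 and 10.48 in GFP replicates 1 to 4 and 9.85, 9.69, 9.57 and 9.68 in LCN2 replicates 1 to 4, a difference of -0.64 ± 0.11, or -0.57 ± 0.13 without. Sfxn1, a serine carrier of the mitochondrial inner membrane, was at 12.17, 12.46, 12.03 and 12.10 in GFP replicates 1 to 4 and 11.79, 11.50, 11.58 and 11.77 in LCN2 replicates 1 to 4, a difference of -0.53 ± 0.11, or -0.41 ± 0.10 without.

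Among the rest of the leading lower genes, Hs3st3b1, a heparan sulfate sulfotransferase, had a difference of -0.65 ± 0.13, or -0.44 ± 0.12 without the pair. Ung, which removes uracil from DNA, had -0.53 ± 0.12, or -0.57 ± 0.15 without. Epop, a partner of the Polycomb complex, had -0.41 ± 0.09 (-0.30 ± 0.08 without the pair), and Rexo5, an RNA exonuclease, -0.34 ± 0.06 (-0.30 ± 0.07 without the pair). Fam117a had -0.32 ± 0.07 (-0.27 ± 0.09 without the pair), and Cept1, which makes phosphatidylcholine and phosphatidylethanolamine, -0.26 ± 0.05 (-0.23 ± 0.07 without the pair). None of these 10 genes overlapped between the groups, which the rule of choice required. All had an adjusted p of 0.308 by limma.

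**Figure D3:**
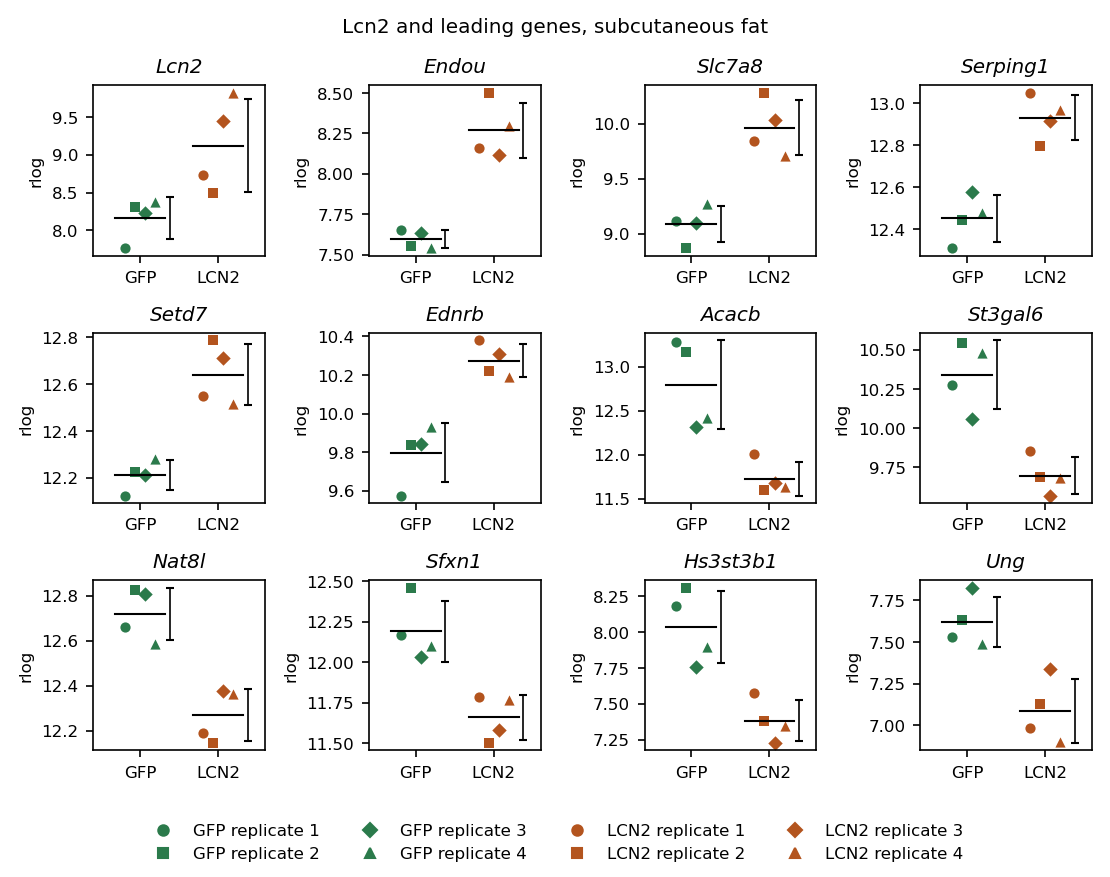
Expression (rlog, y axis) of Lcn2, 5 leading higher and 6 leading lower genes in the GFP (green) and LCN2 (orange) samples, with replicate numbers as mark shapes. Lines are group means, bars are the mean ± SD (n = 4), and each y axis has its own range that does not start at 0. All 12 genes had groups that did not overlap, which was a rule of choice for the leading genes. Acacb shows GFP replicates 1 and 2 at 13.29 and 13.17 above GFP replicates 3 and 4 at 12.32 and 12.42.

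The leptin gene had the smallest unadjusted limma p among the adipokine genes in both fits. Differences in this list ran from -1.41 to 1.29 with all samples. Of 23 measured adipokine genes, 11 had an unadjusted p under 0.05 on the higher side and 2 on the lower, with a median difference of 0.30. Without GFP replicates 1 and 2 these counts were 3 and 0, with a median of 0.21. Lep, the gene of the satiety hormone leptin, was at 14.20, 14.17, 14.71 and 14.66 in GFP replicates 1 to 4 and 15.14, 15.75, 15.88 and 15.36 in LCN2 replicates 1 to 4. All LCN2 samples were above all GFP samples, by 1.10 ± 0.20 on average and by 0.85 ± 0.22 without the pair. Apln, the gene of the vessel-active peptide apelin, had 0.81 ± 0.24, or 0.62 ± 0.29 without, with overlapping groups.

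Of 11 genes of fat cell expansion, 7 had an unadjusted p under 0.05, all on the higher side, and 3 of them did in both fits. The list's median was 0.68 with all samples and 0.40 without the pair. Its level was -0.56, -0.82, -0.07 and 0.18 in GFP replicates 1 to 4 and 0.16, 0.61, 0.52 and 0.19 in LCN2 replicates 1 to 4, lowest in GFP replicates 1 and 2, which also held the most lymph node transcripts. With the samples' lymph node score, the mean level of the B cell, T and NK cell and lymph node lists, as a covariate, the median was 0.48. Sfrp5, a secreted Wnt antagonist that rises in expanding fat, was at 9.85, 9.70, 10.69 and 11.32 in GFP replicates 1 to 4 and 11.48, 12.14, 11.28 and 11.83 in LCN2 replicates 1 to 4. GFP replicate 4 overlapped with the LCN2 samples by a small margin, and the difference was 1.29 ± 0.36, or 0.68 ± 0.27 without the pair. Trp53inp2, a regulator of autophagy, had 0.89 ± 0.23, or 0.64 ± 0.25 without, and Npr3, the clearance receptor of natriuretic peptides, had 0.68 ± 0.22, or 0.40 ± 0.22 without. Both lists hold Lep and Sfrp5, and the adipokine list also holds Lcn2 itself.

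The windows around the start sites of Lep, Adipoq and Acacb (RefSeq, GRCm38.p6, 250 bases before to 50 after the start, all 3 on the plus strand) are shown for a hormone gene and a lipid enzyme gene whose groups did not overlap, and because an adiponectin promoter drives the vector. The Acacb window surrounds a start site inside the gene's annotated span. They lie at chr6:29059971-29060270, chr16:23146286-23146585 and chr5:114165268-114165567. Capitals mark TATAA of the TATA box, the CCAAT box and the palindrome TTGCGCAA, to which C/EBP factors can bind, on either strand.
Lep: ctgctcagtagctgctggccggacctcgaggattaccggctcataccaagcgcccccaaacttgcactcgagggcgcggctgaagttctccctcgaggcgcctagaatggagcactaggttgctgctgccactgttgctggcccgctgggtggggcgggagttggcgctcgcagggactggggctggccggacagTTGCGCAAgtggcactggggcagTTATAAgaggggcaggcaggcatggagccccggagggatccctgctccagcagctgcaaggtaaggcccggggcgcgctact
Adipoq: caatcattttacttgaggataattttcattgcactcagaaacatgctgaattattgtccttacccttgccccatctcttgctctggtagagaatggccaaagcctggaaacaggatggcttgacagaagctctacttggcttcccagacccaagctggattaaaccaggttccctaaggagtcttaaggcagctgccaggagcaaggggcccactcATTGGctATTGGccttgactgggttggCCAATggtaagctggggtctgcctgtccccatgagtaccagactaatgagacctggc
Acacb: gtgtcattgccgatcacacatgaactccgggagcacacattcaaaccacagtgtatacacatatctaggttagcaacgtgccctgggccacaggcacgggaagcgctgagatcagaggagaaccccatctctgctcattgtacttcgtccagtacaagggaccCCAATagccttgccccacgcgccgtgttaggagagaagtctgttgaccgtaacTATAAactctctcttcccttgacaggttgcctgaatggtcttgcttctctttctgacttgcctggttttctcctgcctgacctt
The Lep window held TTGCGCAA once, 55 bases before the start site, beside TATAA matches on both strands at 32 and 31 bases before it. The 2 TATAA matches overlap and are 1 TTATAA run. Adipoq held CCAAT 3 times and Acacb held TATAA and CCAAT once each. Among all 32851 RefSeq windows of this length, 24.9% held TATAA, 37.4% held the CCAAT box and 0.183% held TTGCGCAA. These matches describe the letters and are no evidence of binding.

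Genes of fat cell identity had a median near 0. Of 25 genes of adipocyte identity, 1 was higher and 2 were lower at an unadjusted p under 0.05, with a median of 0.08, or -0.04 without the pair, where 0 were higher and 2 lower. The lower ones were Arxes1 and Arxes2, retrogenes active in fat cells and near-copies of each other, between which the counting may have split reads. Arxes2 was at 12.45, 12.62, 12.97 and 12.79 in GFP replicates 1 to 4 and 12.33, 12.16, 12.18 and 12.21 in LCN2 replicates 1 to 4, and all LCN2 samples were below all GFP samples. Its difference of -0.48 ± 0.11 was -0.66 ± 0.08 without the pair of libraries, and GFP replicates 1 and 2 lay nearer to the LCN2 samples than GFP replicates 3 and 4 did. Arxes1 had -0.43 ± 0.12, or -0.63 ± 0.08 without. Rxra, the partner receptor of PPARG, had 0.21 ± 0.06, or 0.13 ± 0.07 without.

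Genes of iron handling had a median near 0. Of 31 tested members, 4 were higher and 1 was lower at an unadjusted p under 0.05, and the median was 0.03, or 0.02 without the pair, where 2 were higher and 0 lower. Lcn2 itself is 1 of the higher members. Heph, the gene of hephaestin, a copper ferroxidase that helps iron leave cells, was at 11.42, 11.33, 11.72 and 11.58 in GFP replicates 1 to 4 and 11.89, 12.09, 12.19 and 12.00 in LCN2 replicates 1 to 4. Its groups did not overlap, with a difference of 0.54 ± 0.10, or 0.40 ± 0.10 without the pair. Tfr2, the second transferrin receptor and an iron sensor of liver, was at 6.14, 6.51, 5.82 and 6.29 in GFP replicates 1 to 4 and 6.51, 6.74, 6.83 and 6.34 in LCN2 replicates 1 to 4, with overlapping groups and a difference of 0.42 ± 0.16, or 0.55 ± 0.18 without. Lrp2, the megalin receptor that can take up lipocalin-2, had a mean rlog of 1.86, too low for testing.

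Lipid synthesis genes were below 0 in 16 of 24 in each fit. Of 24 lipogenic genes 2 were higher and 1 was lower at an unadjusted p under 0.05, with a median of -0.22, or -0.06 without the pair, where 0 were higher and 3 lower. The list's level was 0.29, 0.25, 0.18 and -0.47 in GFP replicates 1 to 4 and -0.41, -0.24, 0.42 and -0.23 in LCN2 replicates 1 to 4, with GFP replicate 4 the lowest and LCN2 replicate 3 the highest, so that samples of both groups lay at both ends. G6pdx, which makes NADPH in the pentose phosphate pathway, had 0.42 ± 0.13, or 0.34 ± 0.15 without, and Idh1, another source of NADPH, 0.41 ± 0.16, or 0.38 ± 0.21 without. Acacb, described above, was the lower one with all samples. For uptake and triglyceride synthesis the median of 27 genes was 0.02, or -0.02 without the pair, with 2 higher and 1 lower, against 1 and 2 without it. Gpam, the mitochondrial enzyme of the initial acylation of glycerol phosphate, had 0.39 ± 0.16, or 0.47 ± 0.20 without. Gpat4, its endoplasmic reticulum counterpart, had -0.17 ± 0.07, or -0.11 ± 0.09 without. Acsl4 and Acsl3, which activate long-chain fatty acids, had 0.15 ± 0.07 and -0.15 ± 0.14, or 0.21 ± 0.08 and -0.40 ± 0.08 without the pair.

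Lipolysis genes had a median of 0.04 over 20 members, with 3 higher and 1 lower, or -0.12 without the pair, with 1 higher and 1 lower. Pde3b, the phosphodiesterase through which insulin restrains lipolysis, was at 13.69, 13.84, 14.01 and 13.73 in GFP replicates 1 to 4 and 13.50, 13.53, 13.60 and 13.55 in LCN2 replicates 1 to 4. All LCN2 samples were below all GFP samples, with a difference of -0.27 ± 0.08, or -0.33 ± 0.10 without the pair. Ptger3, an antilipolytic prostaglandin E receptor, had 0.47 ± 0.17, or 0.57 ± 0.21 without, and G0s2, an inhibitor of the triglyceride lipase ATGL, 0.58 ± 0.19, or 0.33 ± 0.18 without. Mgll, the monoglyceride lipase, had 0.38 ± 0.15, or 0.24 ± 0.18 without. Of 15 lipid droplet genes 2 were higher and 2 lower, with a median of 0.04, or -0.03 without the pair, and none had an unadjusted p under 0.05 without the pair. Plin4, a droplet coat protein of white fat, was at 16.52, 16.72, 17.26 and 17.28 in GFP replicates 1 to 4 and 17.55, 17.58, 17.44 and 17.39 in LCN2 replicates 1 to 4. The groups did not overlap, but GFP replicates 1 and 2 were the lowest, and the difference of 0.55 ± 0.21 was 0.22 ± 0.21 without them. Hilpda, a droplet protein induced by hypoxia, had 0.33 ± 0.10 (0.24 ± 0.12 without the pair), and Aup1, which also acts in the disposal of misfolded proteins, -0.18 ± 0.06 (-0.10 ± 0.06 without the pair). Cidea, described below, was the other lower member.

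Thermogenic genes had a median below 0, with large spread among the GFP samples. Of 25 members, 7 were lower and 1 was higher at an unadjusted p under 0.05, with a median of -0.31. Without GFP replicates 1 and 2 these counts were 3 and 0, and the median was -0.24. Ucp1, the uncoupling protein, was at 12.18, 8.21, 7.38 and 10.98 in GFP replicates 1 to 4 and 8.71, 5.88, 6.12 and 7.12 in LCN2 replicates 1 to 4. GFP replicates 1 and 4 were high, GFP replicates 2 and 3 overlapped with the LCN2 samples, and the difference was -2.73 ± 1.11, or -2.22 ± 1.12 without the pair. Cidea, a droplet protein of brown and beige fat, was at 10.62, 8.86, 8.20 and 9.66 in GFP replicates 1 to 4 and 8.61, 7.57, 7.75 and 7.93 in LCN2 replicates 1 to 4, with the same GFP replicates 1 and 4 highest and a difference of -1.37 ± 0.48, or -0.97 ± 0.43 without. Cox8b, a cytochrome oxidase subunit of brown fat and muscle, had -0.73 ± 0.25, or -0.38 ± 0.17 without. Pank1, which makes the precursor of coenzyme A, had -0.63 ± 0.21, or -0.31 ± 0.13 without, with groups that did not overlap. Zic1, a marker of classical brown fat, had a mean under the one required for testing.

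Fatty acid oxidation genes also had a median below 0. Of 28 genes, 6 were lower and 0 higher at an unadjusted p under 0.05, against 4 and 0 without the pair, and the median was -0.11, or -0.07 without. Ppara, the nuclear receptor that drives oxidation genes, was at 9.01, 8.63, 8.32 and 8.71 in GFP replicates 1 to 4 and 8.09, 8.07, 8.08 and 8.10 in LCN2 replicates 1 to 4. The LCN2 samples lay close together and below every GFP sample, with a difference of -0.58 ± 0.13, or -0.43 ± 0.11 without. Ehhadh, a peroxisomal enzyme, was at 10.35, 10.35, 10.51 and 10.37 in GFP replicates 1 to 4 and 9.87, 10.00, 10.26 and 10.13 in LCN2 replicates 1 to 4, a difference of -0.33 ± 0.09, or -0.37 ± 0.11 without. Acadvl, of the mitochondrial pathway, had -0.32 ± 0.10, or -0.21 ± 0.07 without, and Crat, the carnitine acetyltransferase, -0.18 ± 0.06, or -0.12 ± 0.07 without. In all 4 of these genes, named for their small p, the groups did not overlap. All LCN2 samples were below all GFP samples for 5 of the 28, beside 3.27% of all tested genes.

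Respiratory chain genes showed small differences that came nearer to 0 without GFP replicates 1 and 2. Of 37 complex I genes 34 were below 0, with a median of -0.08 and 7 at an unadjusted p under 0.05. Of 39 genes of complexes II to V 37 were below 0, with a median of -0.11 and 4 at that threshold. Without the pair no gene of either list met it, and the medians were -0.04 and -0.03. The levels of complex I were 0.14, 0.06, 0.13 and -0.13 in GFP replicates 1 to 4 and -0.14, -0.05, 0.08 and -0.05 in LCN2 replicates 1 to 4, with GFP replicate 4 as low as LCN2 replicate 1 and GFP replicate 3 as high as GFP replicate 1. Ndufa6, a complex I subunit, was at 11.08, 11.06, 10.94 and 10.89 in GFP replicates 1 to 4 and 10.79, 10.65, 10.78 and 10.83 in LCN2 replicates 1 to 4, a difference of -0.23 ± 0.06, or -0.15 ± 0.07 without. Atp5g2, which encodes the ring subunit of ATP synthase and has related copies, had -0.19 ± 0.05, or -0.15 ± 0.07 without. Of 13 genes of the mitochondrial genome 1 met the threshold, mt-Nd3, with -0.28 ± 0.12, or -0.15 ± 0.12 without.

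Pyruvate and tricarboxylic acid cycle genes were below 0 in 26 of 28, with a median of -0.13, or -0.05 without the pair, and 3 were lower, or 1 without. Pdk2 and Pdk1, kinases that switch off pyruvate dehydrogenase, had -0.31 ± 0.09 and -0.44 ± 0.15, or -0.35 ± 0.10 and -0.14 ± 0.07 without. Idh3b, a subunit of the cycle's isocitrate dehydrogenase, had -0.22 ± 0.09 (-0.13 ± 0.09 without the pair). Among 26 genes of mitochondrial biogenesis and dynamics, 3 were lower, with a median of -0.02, or -0.03 without, where 1 was lower. Esrra, a nuclear receptor of mitochondrial genes, had -0.24 ± 0.07, or -0.19 ± 0.09 without, and its coactivator Ppargc1b had -0.42 ± 0.13, or -0.30 ± 0.12 without. In both the groups did not overlap. All LCN2 samples were below all GFP samples for 2 of the 26, beside 3.27% of all tested genes.

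**Figure D4:**
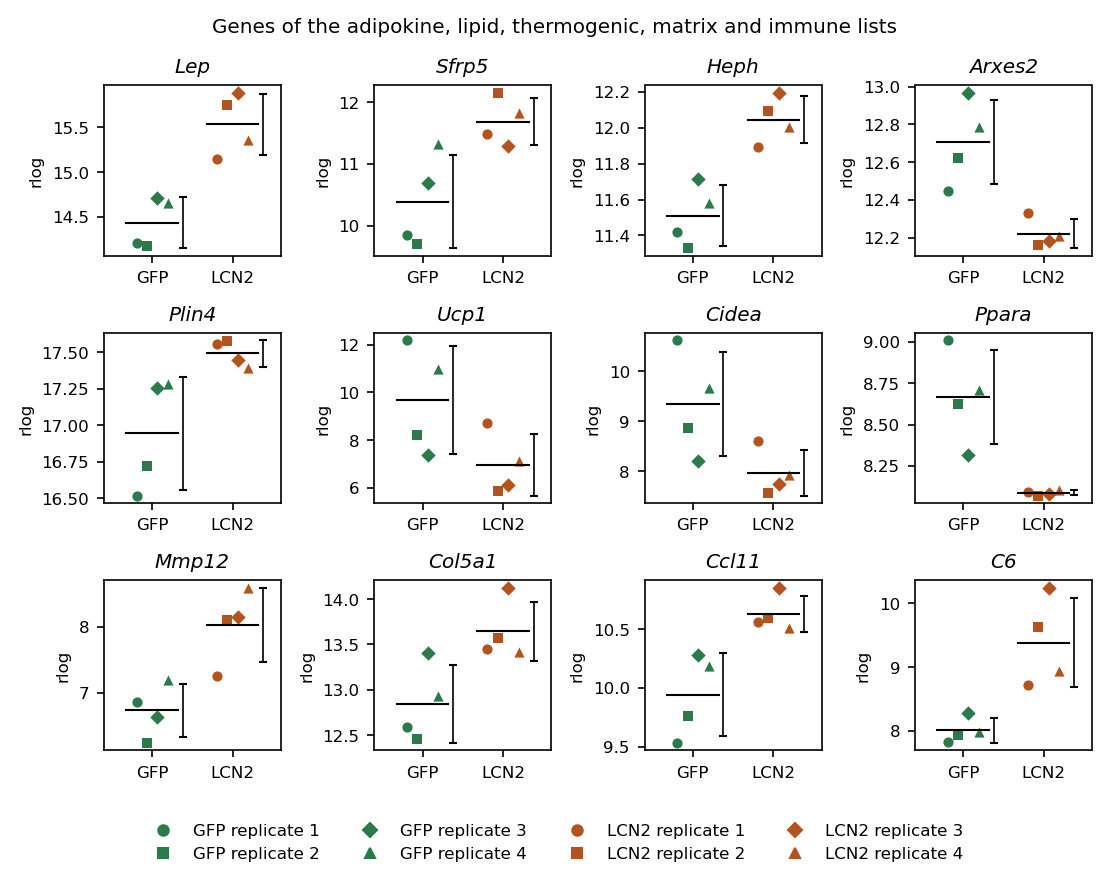
Expression (rlog, y axis) of 12 genes from the adipokine, iron, adipocyte, lipid droplet, thermogenic, oxidation, matrix and immune lists in GFP (green) and LCN2 (orange) samples, with replicate numbers as mark shapes. Lines are means, bars are the mean ± SD (n = 4), and each y axis has its own range that does not start at 0. Ucp1 and Cidea overlap between groups, with GFP replicate 1 highest at 12.18 and 10.62.

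Most genes of the extracellular matrix had differences above 0. Of 20 collagen genes 18 were above 0 and 9 had an unadjusted p under 0.05, with a median of 0.70. Without GFP replicates 1 and 2 no collagen gene met the threshold, and the median was 0.32. The list's level was -0.60, -0.58, 0.25 and -0.32 in GFP replicates 1 to 4 and 0.11, 0.41, 0.77 and 0.05 in LCN2 replicates 1 to 4, so GFP replicate 3 was above LCN2 replicates 1 and 4. Col5a1, which sets the width of collagen fibrils, was at 12.59, 12.45, 13.41 and 12.93 in GFP replicates 1 to 4 and 13.45, 13.57, 14.13 and 13.42 in LCN2 replicates 1 to 4, with GFP replicate 3 just under the lowest LCN2 samples. Its difference was 0.80 ± 0.23, or 0.48 ± 0.23 without the pair. Col6a1, a collagen of the net around fat cells, had 0.89 ± 0.30, or 0.52 ± 0.32 without, with overlapping groups.

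Of 36 other matrix genes 35 were above 0, 17 met the threshold and 4 met it in both fits, with medians of 0.38 and 0.20. All LCN2 samples were above all GFP samples for 8 of the 36, beside 3.81% of all tested genes. Mmp12, the macrophage elastase, was at 6.86, 6.25, 6.63 and 7.20 in GFP replicates 1 to 4 and 7.26, 8.10, 8.15 and 8.59 in LCN2 replicates 1 to 4, a difference of 1.29 ± 0.30, or 1.11 ± 0.35 without. Adamts5, a protease of proteoglycans, was at 12.84, 12.52, 13.22 and 13.44 in GFP replicates 1 to 4 and 13.64, 13.99, 13.65 and 13.70 in LCN2 replicates 1 to 4, a difference of 0.74 ± 0.19, or 0.42 ± 0.13 without. Adamts1, a related protease, had 0.50 ± 0.13, or 0.34 ± 0.11 without, and the proteoglycan gene Bgn 0.65 ± 0.19, or 0.35 ± 0.14 without. The levels of collagens and of the other matrix list were lowest in GFP replicates 1 and 2, the libraries with the most lymph node transcripts. With the lymph node score as a covariate the medians were 0.34 for collagens and 0.25 for the other matrix list.

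Markers of vessels and progenitors had medians above 0 with all samples. The endothelial list, with 7 of 18 members higher and 1 lower, had a median of 0.34, or 0.18 without the pair, where 1 was higher and 0 lower. GFP replicates 1, 2 and 3 had the lowest levels of it. Cldn5, a tight junction protein of endothelium, was at 10.75, 9.94, 10.41 and 10.80 in GFP replicates 1 to 4 and 11.01, 11.40, 11.11 and 10.92 in LCN2 replicates 1 to 4, a difference of 0.64 ± 0.19, or 0.51 ± 0.16 without. The cadherin gene Cdh5 of the same cells had 0.52 ± 0.18, or 0.29 ± 0.17 without. The pericyte and smooth muscle list had 6 of 16 members higher and a median of 0.32, which was -0.04 without the pair, where 1 was higher and 2 were lower, GFP replicates 1 and 2 being the lowest. Rgs5, a pericyte regulator of G proteins, was at 12.58, 12.18, 12.56 and 12.80 in GFP replicates 1 to 4 and 12.90, 13.38, 13.19 and 13.11 in LCN2 replicates 1 to 4, a difference of 0.62 ± 0.14, or 0.47 ± 0.14 without. Of 22 progenitor and fibroblast markers 4 were higher, with a median of 0.18, or 0.11 without, where 1 was higher, and GFP replicate 1 was the lowest. The fibrillin gene Fbn1 had 0.89 ± 0.30 (0.51 ± 0.32 without the pair), the matricellular gene Smoc2 0.80 ± 0.25 (0.55 ± 0.29 without the pair) and Cd34, a surface protein of progenitors and endothelium, 0.46 ± 0.16 (0.31 ± 0.14 without the pair).

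Signals between these cells gave a few values apart from 0. In the list of TGF-beta and BMP signalling 5 of 26 members were higher, with a median of 0.14, or 0.05 without the pair, where 2 were higher and 1 lower. Fstl3, a binder of activin, had 0.55 ± 0.16, or 0.29 ± 0.12 without. In the Wnt list 8 of 25 were higher, with a median of 0.07. Without the pair 1 was higher and the median was 0.06. The ligand gene Wnt5a had 0.33 ± 0.10, or 0.18 ± 0.08 without, and the coreceptor gene Lrp5 0.33 ± 0.10, or 0.18 ± 0.08 without. The insulin-like growth factor list had 2 of 12 higher and a median of 0.30, or 0.08 without, where 0 were higher and 0 lower. Its member Igfbp4, a binding protein that holds back the growth factors, had 0.34 ± 0.10, or 0.26 ± 0.13 without.

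Macrophage lists had medians above 0. For lipid-associated macrophages, which take up lipid around dying fat cells, 5 of 18 markers were higher, with a median of 0.22, or 0.13 without the pair, where 2 were higher and 0 lower. The latter 2 were Mmp12 and Atp6v0d2, which are also counted in the matrix list and the lysosome list. Levels of the lipid-associated list were -0.25, -0.09, 0.02 and -0.01 in GFP replicates 1 to 4. In LCN2 replicates 1 to 4 they were 0.02, 0.04, 0.19 and 0.07. For macrophages in general 2 of 20 were higher, with a median of 0.13, or 0.19 without, where 2 were higher, and the lowest samples were GFP replicate 4 and LCN2 replicate 2. Itgam, an integrin of myeloid cells, had 0.27 ± 0.10, or 0.35 ± 0.12 without, and Ccr2, the receptor of monocytes for Ccl2, 0.44 ± 0.17, or 0.42 ± 0.20 without. Of 31 lysosome and proton pump genes 7 were higher and 4 were in both fits, with medians of 0.11 and 0.10. Besides Atp6v0d2 and Naaa, the 7 genes higher with all samples held the cathepsin genes Ctsa and Ctsl. Ctsa had 0.16 ± 0.05, or 0.15 ± 0.06 without, and Ctsl had 0.48 ± 0.14, or 0.35 ± 0.17 without. Ctsd, another lysosomal protease gene, had 0.40 ± 0.16, or 0.28 ± 0.19 without.

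Complement genes were above 0 in 18 of 23, with a median of 0.13, or 0.16 without the pair, and 5 were higher, or 4 without. All LCN2 samples were above all GFP samples for 5 of them, beside 3.81% of all tested genes. C6, a component of the membrane attack complex, was at 7.83, 7.94, 8.28 and 7.98 in GFP replicates 1 to 4 and 8.73, 9.64, 10.25 and 8.93 in LCN2 replicates 1 to 4, a difference of 1.38 ± 0.31, or 1.25 ± 0.41 without. C1s1, a protease of the classical pathway, had 0.32 ± 0.09, or 0.20 ± 0.09 without, and Cd59a, which protects host cells from the attack complex, 0.45 ± 0.13, or 0.25 ± 0.12 without. Among 29 tested cytokine and NF-kB genes 6 were higher and 2 lower, with a median of -0.02, or 0.04 without, where 5 were higher and 0 lower. Ccl11, the eosinophil chemokine eotaxin, was at 9.53, 9.76, 10.28 and 10.19 in GFP replicates 1 to 4 and 10.57, 10.59, 10.85 and 10.51 in LCN2 replicates 1 to 4, a difference of 0.69 ± 0.17, or 0.40 ± 0.10 without. Ccl2 and Ccl9, which attract monocytes, had 0.45 ± 0.14 and 0.43 ± 0.13, or 0.52 ± 0.17 and 0.44 ± 0.13 without, with overlapping groups. Il6, Il10, Cxcl2 and Cxcl5 were under the mean required for testing.

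The interferon list had 1 of 30 members higher and a median of 0.12, or 0.10 without the pair. LCN2 replicate 1 stood at 0.43 with the other 7 samples between -0.14 and 0.06. Ifit2, an interferon-induced RNA-binding protein gene, had 0.28 ± 0.12, or 0.28 ± 0.16 without the pair. Antigen presentation had a median of -0.06 over 22 members, which was 0.09 without the pair. Its level was highest in GFP replicate 1, at 0.50. With all samples 8 of the 22 were above 0, and without the pair 21 were. At an unadjusted p under 0.05, 1 was higher with all samples and 2 without the pair, and 0 were lower in either fit. B2m, the light chain of class I molecules, had 0.25 ± 0.11, or 0.22 ± 0.15 without. The B cell gene Jchain, which joins antibody chains, was at 7.41, 6.28, 5.63 and 5.86 in GFP replicates 1 to 4 and 5.38, 5.10, 5.57 and 5.35 in LCN2 replicates 1 to 4, so that all LCN2 samples were below all GFP samples, with a difference of -0.95 ± 0.35, or -0.40 ± 0.14 without the pair. It was the exception in the B cell list, whose median was -1.15 with all samples and 0.65 without the pair. Without the pair 19 of 20 members were above 0. The list's level was 1.32 in LCN2 replicate 4 and between -1.44 and -0.97 in the other LCN2 samples. GFP replicates 3 and 4 stood at -1.28 and -1.33. Eicosanoid synthesis had 5 of 20 members higher and a median of 0.13, or 0.08 without, where 1 was higher and 0 lower. Pla2g5, a secreted phospholipase, was at 5.96, 5.28, 5.41 and 5.51 in GFP replicates 1 to 4 and 6.27, 6.47, 6.58 and 6.00 in LCN2 replicates 1 to 4, a difference of 0.79 ± 0.17, or 0.87 ± 0.16 without.

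**Figure D5:**
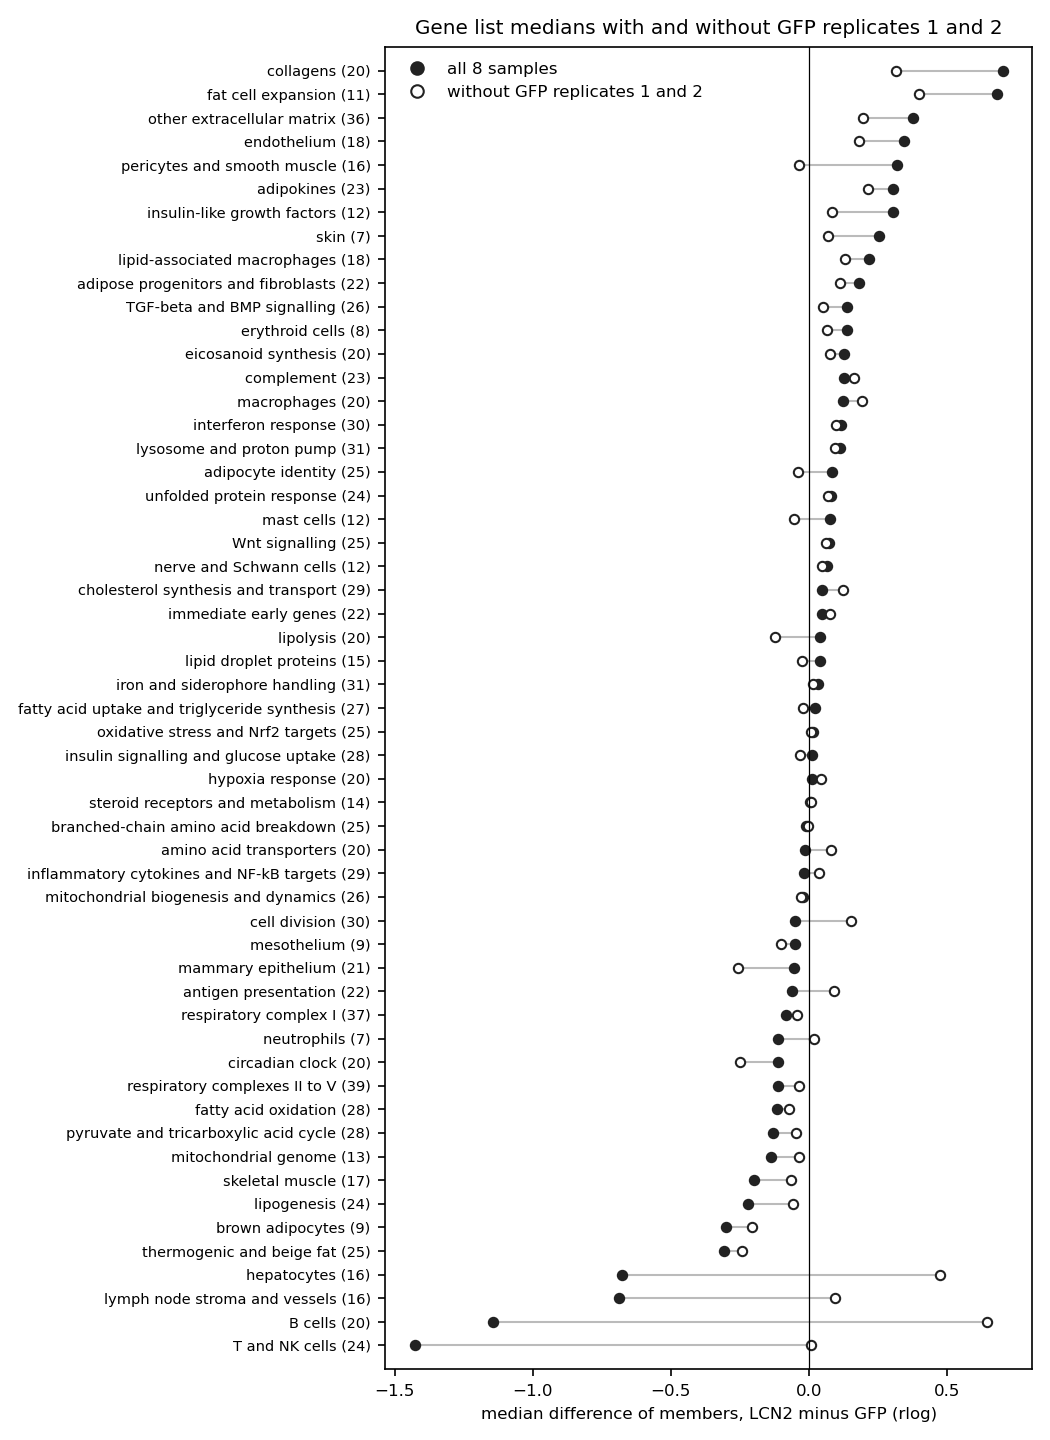
Median difference between LCN2 and GFP (rlog, x axis) over the measured members of each of 55 gene lists, with their number in brackets. Filled circles are all 8 samples, open circles are without GFP replicates 1 and 2, and no test was run on the lists. The lymphocyte, lymph node and hepatocyte medians moved from below 0 to above it, that of T and NK cells only to 0.0069. The collagen median went from 0.70 to 0.32.

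Cholesterol genes were above 0 in 20 of 29, with 3 at an unadjusted p under 0.05 and a median of 0.05, or 0.12 without the pair, where 2 were higher and 0 lower. Hmgcs1, the synthase before HMG-CoA reductase, was at 12.04, 11.26, 11.72 and 12.63 in GFP replicates 1 to 4 and between 12.50 and 13.44 in the LCN2 samples, a difference of 1.04 ± 0.30, or 0.77 ± 0.31 without, and GFP replicate 4 overlapped with LCN2 replicate 4. Sc5d, a late enzyme of the pathway, had 0.38 ± 0.10, or 0.30 ± 0.11 without. In the clock list the median was -0.11 over 20 genes, with 1 higher and 1 lower. Without the pair it was -0.25, with 2 higher and 5 lower. Clock, an activator, had 0.38 ± 0.12, or 0.38 ± 0.13 without, while Dbp, an output gene that the activators drive, had -0.44 ± 0.21, or -0.68 ± 0.17 without. Cry1, a repressor, had -0.44 ± 0.15, or -0.27 ± 0.16 without. The labels used here give no time of day.

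The remaining function lists had medians near 0 with all samples, given here with the median without the pair in brackets. Medians were 0.01 (0.04) for the hypoxia response, 0.01 (-0.03) for insulin signalling, 0.02 (0.01) for oxidative stress, 0.08 (0.07) for the unfolded protein response, 0.05 (0.08) for immediate early genes and -0.05 (0.15) for cell division. They were -0.01 (0.00) for branched-chain amino acid breakdown, -0.02 (0.08) for amino acid transporters and 0.00 (0.01) for steroid receptors. Of 30 cell division genes 13 were above 0 with all samples and 20 without the pair. Mcm6 of that list, given below, was below 0 in both fits. Single members stood out. Hif1a, the oxygen-regulated transcription factor, was at 11.37, 11.45, 11.38 and 11.38 in GFP replicates 1 to 4 and 11.74, 11.52, 11.81 and 11.58 in LCN2 replicates 1 to 4, with the GFP samples close together and below all LCN2 samples, a difference of 0.27 ± 0.07, or 0.28 ± 0.09 without the pair. Pfkfb3, a driver of glycolysis, had 0.56 ± 0.15, or 0.39 ± 0.17 without. Sod3, the secreted superoxide dismutase, had 0.64 ± 0.17, or 0.34 ± 0.12 without, and the transcription factor gene Jun 0.41 ± 0.11, or 0.33 ± 0.14 without. The chaperone gene Hspa5 had 0.23 ± 0.07 (0.20 ± 0.09 without the pair), the kinase gene Gsk3b 0.21 ± 0.07 (0.09 ± 0.06 without the pair), Hsd11b1, which regenerates active glucocorticoid, -0.40 ± 0.14 (-0.32 ± 0.15 without the pair), and the replication helicase gene Mcm6 -0.27 ± 0.08 (-0.18 ± 0.09 without the pair).

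Markers of other tissues had medians on both sides of 0. The skeletal muscle list had a median of -0.20 over 17 members, or -0.07 without the pair. Its member Casq1, a calcium store protein, was at 4.79, 4.80, 4.80 and 5.10 in GFP replicates 1 to 4 and 5.26, 5.61, 5.70 and 5.34 in LCN2 replicates 1 to 4, a difference of 0.61 ± 0.12, or 0.53 ± 0.15 without. Myh1, a fast myosin, was at 5.56, 5.21, 5.74 and 5.30 in GFP replicates 1 to 4 and 4.99, 5.16, 5.16 and 5.02 in LCN2 replicates 1 to 4, a difference of -0.37 ± 0.12, or -0.44 ± 0.13 without. The groups did not overlap in either gene, in opposite directions. This held for 2 of the 17 members, beside 7.08% of all tested genes in either direction. Medians with all samples and, in brackets, without the pair were 0.08 (-0.05) for mast cells, 0.14 (0.07) for erythroid cells, 0.07 (0.05) for nerve, -0.05 (-0.10) for mesothelium, 0.25 (0.07) for skin, -0.11 (0.02) for neutrophils and -0.06 (-0.26) for mammary epithelium. Of 21 mammary members 13 were below 0 with all samples and 19 without the pair. Lcn2 itself is on the mammary list and was its 1 member with an unadjusted limma p under 0.05 with all samples. The brown adipocyte list, which shares Ucp1, Cidea and other genes with the thermogenic list, had a median of -0.30, or -0.21 without.

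For St3gal6, Cept1, G6pdx, Aup1, Acadvl, Fstl3, Fbn1, Dbp, C1s1, Ctsa, Ctsl and Hmgcs1, between 12.1% and 47.3% of the exonic bases lie under a gene on the opposite strand. Itgam and Ctsd share 68.7% and 34.4% with an overlapping gene model on the same strand. The strand setting of the counting is not given, so reads of these genes and of their neighbours may have been mixed.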

How the data were processed

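RNA of subcutaneous fat from 4 LCN2 and 4 GFP samples was measured by sequencing, with groups taken from the labels. The authors deposited 1 table of rlog values (a log2 scale) for 30946 genes, 99.2% of them with a symbol. Per the submitters' processing notes HISAT2 and DESeq2 were used with the builds GRCm38 and mm10. No version, counter, strand mode or gene annotation is given in the sources used here. The gonadal samples were in a separate table and were not analysed here.

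Genes with a mean rlog of at least 3 were tested (20302) with limma 3.58.1 in R 4.3.3 (moderated test with an intensity trend, Benjamini-Hochberg adjustment, threshold 0.05), with all 8 samples and without GFP replicates 1 and 2. The fit was tested on simulated data in which each gene varied independently. That simulation held nothing like the lymph node transcripts shared by GFP replicates 1 and 2. Lcn2 was also tested with an exact permutation test. No counts or depth were recovered from rlog. Gene positions are from GENCODE (GRCm38), and figures were drawn with matplotlib 3.10.9.

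The genes, 55 lists and libraries examined were chosen with earlier results of these data known. Leading genes are up to 10 in each direction with the smallest p among those with an unadjusted p under 0.05 in both fits, groups that do not overlap and a mean rlog of at least 5. From each function list up to 4 members, and from each cell type list up to 3, with the smallest p may be named, and from each function list the member with the smallest p without GFP replicates 1 and 2. Some genes that meet it are not reported here. Adipoq falls outside this rule and is shown as a marker of the tissue and for the vector's promoter. Alternatives were other filters, scalings, models, a lymph node covariate, a replicate block and left-out samples.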

Additional observations from a re-analysis of the deposited data

Results flagged for a closer look

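Single samples that stood apart from the other 3 of their group, by the gap to the nearest sample over the group's range, were found in 14 of 328 groups examined (4.27%), where chance gives about 1 in 20. Among GFP samples these were Ehhadh in replicate 3, at an rlog of 10.51, Acadvl in replicate 1, at 11.62, Ppargc1b in replicate 1, at 8.87, Hif1a in replicate 2, at 11.45, and Casq1 in replicate 4, at 5.10. The level of the lipogenesis list was -0.47 in GFP replicate 4, and that of the clock list was -0.20 in GFP replicate 1. Among LCN2 samples, Ctsa stood at 12.16 in replicate 2 and Gsk3b at 12.06 in replicate 3. List levels apart from the other LCN2 samples were -0.16 for lipolysis and 0.43 for the interferon response in replicate 1, 0.078 for insulin signalling and 0.11 for skeletal muscle in replicate 3, and 1.32 for B cells in replicate 4.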

How the results depend on the processing

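No gene had an adjusted p under 0.05 by limma in any setting tried, and the smallest was 0.0557, with sample quality weights. The number of genes with an unadjusted p under 0.05, 2851, was 919 without GFP replicates 1 and 2, 1531 with the lymph node score as a covariate, 5831 (2849 higher) with sample quality weights, and 778 without GFP replicates 1 and 2 and LCN2 replicate 4, a setting chosen after seeing the data. It ran from 1445 without GFP replicate 2 to 3895 without GFP replicate 3, with 1859 when GFP replicate 1 was omitted. Omitting LCN2 replicate 2 or 3 left 1832 or 1776. The number of genes whose groups did not overlap, 1437, was 2905 without GFP replicates 1 and 2, 4003 without those 3 samples and 1632 to 3319 without 1 sample, since fewer samples overlap less often. The Lcn2 difference was 0.82 without GFP replicates 1 and 2 (exact permutation p = 0.133), 0.59 without the 3 samples (exact permutation p = 0.2) and 0.72 to 1.16 without 1 sample (exact permutation p from 0.0286 to 0.0857). The replicate numbers were not shown to pair the samples: same-numbered samples' deviations from their group means correlated at -0.11, -0.33, 0.34 and -0.36. With the replicate block the Lcn2 difference was 0.95 (exact sign-flip p = 0.125, the smallest possible) and 3200 genes had an unadjusted p under 0.05. Igkc was at 0.13 without GFP replicates 1 and 2. List medians that moved beyond the spread between samples were, without GFP replicates 1 and 2, -0.039 for adipocyte identity, -0.12 for lipolysis, 0.32 for collagens, 0.083 for insulin-like growth factors, 0.044 for hypoxia response, 0.079 for amino acid transporters, 0.0069 for T and NK cells, 0.095 for lymph node stroma and vessels, 0.017 for neutrophils, -0.035 for pericytes and smooth muscle, 0.069 for skin and 0.47 for hepatocytes. Without the 3 samples they were -0.10 for lipolysis, -0.030 for fatty acid oxidation, 0.031 for mitochondrial genome, 0.069 for insulin-like growth factors, -0.33 for circadian clock, 0.25 for cell division, 0.061 for hypoxia response, 0.095 for amino acid transporters, -0.019 for T and NK cells, 0.0085 for lymph node stroma and vessels, -0.022 for pericytes and smooth muscle and 0.60 for hepatocytes. With the covariate they were -0.032 for lipid droplet proteins, 0.053 for amino acid transporters, -0.031 for lymph node stroma and vessels and 0.053 for neutrophils. Others were 0.017 for skin with no filter, 0.036 for hypoxia response with centred samples, -0.062 for hypoxia response with quantile normalization and 0.088 for neutrophils with quality weights. Without 1 sample, medians were -0.27 to -0.053 for circadian clock, -0.17 to 0.048 for neutrophils, -0.041 to 0.049 for hypoxia response, 0.010 to 0.11 for lipid droplet proteins and -0.040 to 0.053 for amino acid transporters. The B cell median, -1.15 with all samples and 0.65 without GFP replicates 1 and 2, was not counted as moved. Its spread between samples, 1.84, includes the high levels of those libraries. The cause of these moves was not tested. The deposited values hold no depth, so which weakly expressed genes could have shown a difference is not known.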
